A study of Mus musculus with 31 samples.

Results

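The expression of 10 genes of the Wnt and BMP signalling pathways was followed in mouse skin, out of 18193 genes measured. The genes were the Wnt ligands Wnt3, Wnt4, Wnt5a, Wnt10b and Wnt11, the secreted Wnt inhibitor Sfrp1, the Wnt feedback gene Axin2, and the BMP ligands Bmp2, Bmp4 and Bmp6. They were chosen by name as signals of the hair cycle, and all 10 had a probe set whose annotation named that gene alone. Of several such probe sets for a gene, the brightest on average was used.

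The skin came from mice of the strain C3H/HeJ. The series names their disease AA, taken to be alopecia areata, an autoimmune loss of hair to which this inbred strain is prone. The treatment arms are labelled PBS, jak1i and jak3i, where the latter 2 are JAK inhibitors known here only by these codes and, by the series title, applied to the skin. Each arm had 3 arrays at 0, 6 and 12 weeks, the inhibitor arms had 2 arrays each at 24 weeks, and PBS at 24 weeks was not analysed here, which gave 11 groups on 31 arrays. All groups share the strain, the disease label and the tissue, and the 0 week arrays of each arm carry that arm's treatment label. Dose, age, sex, the site of the biopsy and whether the same mice were sampled again were not given in the sources used here. The week was read from the letter W in the sample titles, and the replicates are called biological by the submitters.

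Wnt ligands are secreted proteins that bind Frizzled receptors. In the canonical branch this stabilises β-catenin, which with TCF and LEF factors turns on target genes, among them Axin2, whose protein feeds back to restrain the pathway. In the hair follicle, canonical Wnt signals are known to accompany the entry into growth (anagen), whereas BMP ligands are known to hold follicle stem cells at rest and, in the growing bulb, to act in the differentiation of the hair shaft. Wnt5a and Wnt11 are mostly studied as ligands of the branches that do not use β-catenin.

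Values are log2 RMA expression values of the authors, so a difference of 1 is a 2-fold difference, and levels of different probe sets are not compared with each other. A member was called changed when the adjusted p of limma, corrected over all genes of a contrast by the method of Benjamini and Hochberg, was under 0.05. The levels over all arrays ran from 5.30 to 6.94 for Wnt3, from 6.00 to 6.76 for Wnt10b and from 5.89 to 7.15 for Bmp6, ranges that straddle the median of all probe set values, 6.18. The other 7 members lay above that median on nearly all arrays, with the lowest value at 6.03 for Wnt11. Detection calls were not used here, so whether the dimmest values stand above background was not tested.

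Several marker lists differed between arms and weeks. Keratins of the skin's own keratinocytes were high on all arrays (Krt14 from 12.97 to 14.05), as the tissue label says. A list level is the average, over its genes, of an array's log2 value minus that gene's mean on the 31 arrays. The hair shaft list (20 of 24 genes measured) lay between 0.31 and 2.63 in jak1i at 0 weeks and between -2.70 and -0.98 at 12 weeks, between 0.99 and 2.74 and then between -3.68 and -1.14 in jak3i, and between 0.93 and 2.51 in PBS at 12 weeks. The T and NK cell list (12 of 12) lay between 1.10 and 1.61 and then between -1.31 and -0.66 in jak1i, between 0.20 and 1.0 and then between -1.73 and -1.05 in jak3i, and between 0.66 and 1.60 in PBS at 12 weeks. The fat cell list (8 of 10) went from between -1.66 and -0.96 to between 0.40 and 1.43 in jak1i and from between -1.18 and 0.08 to between 0.17 and 1.95 in jak3i. From 0 to 12 weeks, 0 of the 20 hair shaft genes were called in jak1i (median difference -3.80) and 10 were called lower in jak3i (-4.62), 12 and 10 of the 12 T and NK cell genes were called lower, and 6 and 0 of the 8 fat cell genes were called higher. The 3 PBS arrays at 12 weeks stood apart in the skeletal muscle list, at -6.10 to -2.86, while that list stayed between -0.61 and 1.65 on all other arrays. The part of these shifts in the results below was not tested beyond the values given with the covariates. In bulk skin, fewer cells of a type and less RNA per cell cannot be told apart.

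Promoters from RefSeq (GRCm38.p6, 250 bases before to 50 bases after a start site) were matched by symbol for 7 of the 10 members, Wnt3, Wnt4, Wnt10b, Wnt11, Axin2, Bmp4 and Bmp6, with 8 promoters in all, and were not matched for Wnt5a, Bmp2 and Sfrp1. The 3 printed below belong to Wnt3 and Axin2, called in both inhibitor arms, and to Wnt11, whose differences ran the other way. Their positions are Wnt11 (chr7:98834862-98835161, plus strand), Wnt3 (chr11:103773925-103774224, plus strand) and Axin2 (chr11:108920099-108920398, plus strand), each 5′ to 3′. Capitals mark matches to the TCF/LEF core CTTTGAT, here in its reverse complement ATCAAAG, and to the SMAD motif GGCGCC.
Wnt11: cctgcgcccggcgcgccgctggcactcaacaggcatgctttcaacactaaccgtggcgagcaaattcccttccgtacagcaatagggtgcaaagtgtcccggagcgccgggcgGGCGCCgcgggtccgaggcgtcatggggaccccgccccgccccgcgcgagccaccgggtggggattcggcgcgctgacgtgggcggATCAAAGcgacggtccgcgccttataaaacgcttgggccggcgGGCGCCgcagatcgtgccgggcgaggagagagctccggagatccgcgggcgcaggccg
Wnt3: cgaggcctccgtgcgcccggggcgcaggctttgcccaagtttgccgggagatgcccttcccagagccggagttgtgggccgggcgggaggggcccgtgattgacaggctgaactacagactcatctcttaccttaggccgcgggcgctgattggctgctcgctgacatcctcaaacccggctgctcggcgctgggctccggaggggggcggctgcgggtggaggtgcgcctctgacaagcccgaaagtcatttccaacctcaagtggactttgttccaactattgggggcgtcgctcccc
Axin2: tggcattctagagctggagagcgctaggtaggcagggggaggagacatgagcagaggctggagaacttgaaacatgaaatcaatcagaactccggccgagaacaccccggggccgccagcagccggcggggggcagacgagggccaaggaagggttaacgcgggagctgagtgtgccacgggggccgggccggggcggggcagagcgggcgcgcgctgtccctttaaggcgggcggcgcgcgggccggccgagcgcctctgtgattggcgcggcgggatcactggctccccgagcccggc
In the Wnt11 promoter the TCF/LEF core began at position -51 from the start site and GGCGCC at -137 and -8. Neither motif was in the printed promoters of Wnt3 and Axin2. The Axin2 window belongs to a start site inside the gene, whose 5′ end lies at 108917828, and the bases before that end were not searched. Both strands were searched. The core CTTTGAT was in 3.7% of all 32851 promoters of the same length and its shorter form CTTTGA, which lies inside it, in 16%. GGCGCC was in 11.9% and also occurred in the Wnt4 promoter, at -42 and -21. The STAT motif TTCNNNGAA (8.3% of promoters) and the SMAD box GTCTAGAC (0.2%) had no match in any of the 8 promoters. The E-box CANNTG, found in 72.3% of promoters, had matches in those of Wnt3, Wnt4, Wnt10b, Bmp4, Bmp6 and the second one of Wnt11. These matches describe the letters in this window only.

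Wnt3, a canonical ligand of the skin and hair follicle (chromosome 11, 103774175 to 103818021 in GRCm38.p6), was higher at 12 weeks than at 0 weeks under both inhibitors. In jak1i its values were 5.39, 5.30 and 5.77 at 0 weeks, 6.06, 5.84 and 6.62 at 6 weeks, 6.40, 6.51 and 6.27 at 12 weeks, and 6.17 and 6.94 at 24 weeks. In jak3i they were 5.90, 5.38 and 5.41, then 5.99, 6.20 and 5.83, then 6.52, 6.24 and 6.45, and finally 6.50 and 6.45. Every array at 12 and 24 weeks lay above every 0 week array of its own arm. In PBS the values were 6.02, 5.58 and 5.53 at 0 weeks, 5.73, 6.41 and 6.19 at 6 weeks, and 5.52, 6.29 and 5.31 at 12 weeks, so that PBS replicate 2 at 12 weeks reached the level of the inhibitor arms and the groups overlapped. From 0 to 12 weeks Wnt3 rose by 0.90 in jak1i (SE 0.25, adjusted p = 0.0166, 1.87-fold) and by 0.84 in jak3i (SE 0.25, adjusted p = 0.0378, 1.79-fold). In PBS the difference was -0.01 (95% interval -0.52 to 0.50). The 24 week differences, 1.07 in jak1i and 0.91 in jak3i, did not pass (adjusted p = 0.0523 and 0.138), with 2 arrays at that time. The probe set of Wnt3 carries the suffix x_at, which Affymetrix gives to sets with probes that can match other transcripts.

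Axin2 (chromosome 11, 108917828 to 108950783) moved the same way as Wnt3. In jak1i its values were 7.87, 8.03 and 7.99 at 0 weeks, 8.63, 8.12 and 8.70 at 6 weeks, 8.84, 8.43 and 8.52 at 12 weeks, and 8.40 and 9.06 at 24 weeks. In jak3i they were 8.34, 7.67 and 7.94, then 8.34, 8.79 and 8.30, then 8.97, 8.61 and 8.30, and then 8.25 and 8.72. The jak1i arrays after 0 weeks all lay above those at 0 weeks, while in jak3i replicate 1 at 0 weeks overlapped the later arrays. PBS had 7.88, 7.82 and 7.78 at 0 weeks, 8.12, 8.14 and 8.06 at 6 weeks, and 8.29, 8.11 and 7.83 at 12 weeks. Axin2 rose from 0 to 12 weeks by 0.63 in jak1i (SE 0.20, adjusted p = 0.0386, 1.55-fold) and by 0.65 in jak3i (SE 0.20, adjusted p = 0.0472, 1.57-fold). The PBS difference was 0.25 (95% interval -0.17 to 0.67). A further probe set of Axin2, dim with a mean of 4.02 over the arrays, did not follow (r = -0.09 with the brighter one) and had a jak3i difference of -0.10.

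Wnt11 (chromosome 7, 98835084 to 98854747) lay lower at 12 weeks under both inhibitors, but missed the threshold. Its values in jak1i were 7.59, 7.26 and 7.48 at 0 weeks and 6.32, 6.48 and 6.75 at 12 weeks. In jak3i they were 7.67, 7.60 and 7.33, and 6.76, 6.35 and 6.60. The groups did not overlap in either arm, and PBS at 12 weeks, with 7.48, 6.94 and 7.81, lay above all 6 inhibitor arrays. The difference from 0 to 12 weeks was -0.92 in jak1i (SE 0.33, adjusted p = 0.061) and -0.97 in jak3i (SE 0.33, adjusted p = 0.0619), against -0.08 in PBS. In fits of the compared arrays only, Wnt11 was called lower in both arms (adjusted p = 0.0107 and 0.0355). At 6 weeks the arrays of an inhibitor arm were spread widely, from 6.27 to 7.55 in jak1i and from 6.03 to 7.72 in jak3i, beside 7.13 to 7.31 in PBS. In each inhibitor arm the array with the highest Wnt11 value at 6 weeks was also the array with the highest hair shaft list, as described further on.

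The other Wnt ligands passed in no contrast. Wnt5a (chromosome 14, 28504543 to 28527448) ranged over 2.50 log2 units, from 7.83 in jak1i at 0 weeks to 10.32 in jak3i at 6 weeks, yet its group means spanned 0.88, from 8.36 to 9.24. Its residual SD of 0.65 was the highest of the 10 members, and the arrays of jak1i at 0 weeks lay far apart (9.04, 7.83 and 9.82). Wnt4 (chromosome 4, 137277635 to 137299501), a ligand of epidermis and dermis, stayed within 0.85 log2 units, with its lowest value at 9.16. Its largest mean difference over time was in PBS, 0.42 from 0 to 12 weeks (SE 0.17, adjusted p = 0.208). Wnt10b (chromosome 15, 98770712 to 98778206), a canonical ligand linked to the start of anagen, stayed within 0.76 log2 units. Its difference from 0 to 12 weeks was -0.18 in jak1i, -0.30 in jak3i and -0.07 in PBS, and the highest group mean was 6.51 in PBS at 6 weeks. Sfrp1 (chromosome 8, 23411383 to 23449632), which binds and holds back Wnt ligands, had group means between 9.30 and 9.81 with a residual SD of 0.37, and none of its differences over time passed.

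**Figure D1:**
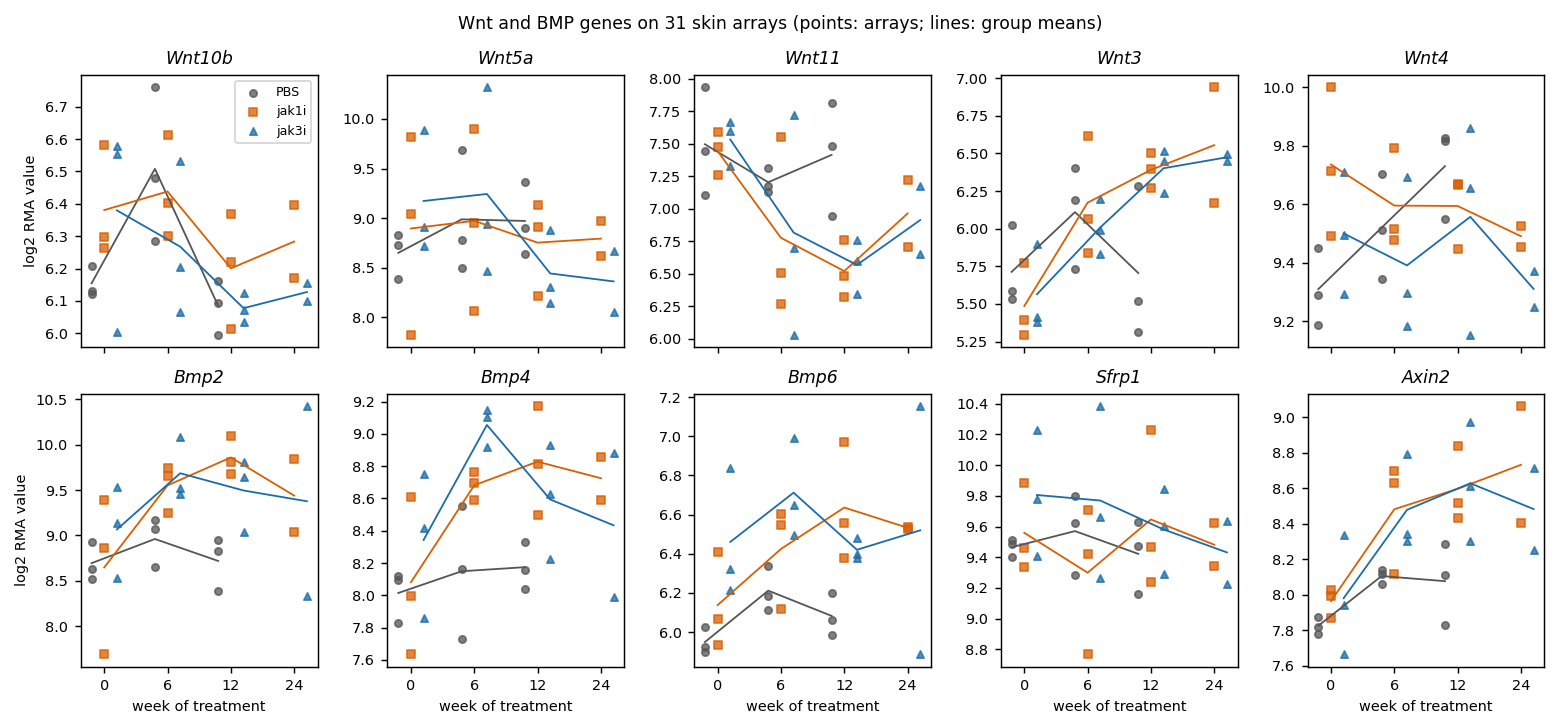
Log2 expression of the 10 members (vertical axes, each on its own scale) by arm and week, with weeks 0, 6, 12 and 24 evenly spaced along the horizontal axis. Points are single arrays and lines join group means. Wnt3 and Axin2 run upwards in both inhibitor arms and Wnt11 downwards, while Wnt5a and Bmp2 show wide spread within groups.

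Among the BMP ligands, Bmp2 (chromosome 2, 133552159 to 133562896) was higher at 12 weeks in jak1i. Its values there were 8.86, 7.69 and 9.39 at 0 weeks, 9.75, 9.66 and 9.25 at 6 weeks, 9.81, 9.68 and 10.10 at 12 weeks, and 9.04 and 9.84 at 24 weeks. All jak1i arrays at 12 weeks lay above those at 0 weeks, although the 0 week arrays were themselves far apart. Bmp2 rose by 1.21 in jak1i (SE 0.42, adjusted p = 0.049, 2.32-fold). Without jak1i replicate 2 at 0 weeks, the lowest array, the difference was 0.73 (adjusted p = 0.243). In jak3i it had 9.53, 8.53 and 9.14 at 0 weeks and 9.81, 9.04 and 9.64 at 12 weeks, a difference of 0.43 (95% interval -0.43 to 1.29). The test of jak1i against jak3i at 12 weeks gave 0.36 (95% interval -0.50 to 1.22), which did not pass. In PBS Bmp2 stayed between 8.38 and 9.17 over all 9 arrays. The pair of jak3i arrays at 24 weeks held the arm's lowest and highest value, 8.33 and 10.42.

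Bmp4 (chromosome 14, 46383525 to 46390669), which in the follicle is made by the dermal papilla and the shaft precursors, had 7.99, 7.64 and 8.61 in jak1i at 0 weeks and 9.17, 8.50 and 8.82 at 12 weeks. The groups overlapped, and the difference of 0.75 (SE 0.26) missed the threshold (adjusted p = 0.0554). In jak3i the level was highest at 6 weeks, with 9.15, 9.10 and 8.92 after 8.75, 7.86 and 8.42 at 0 weeks. That difference of 0.71 (SE 0.26) and the one of 0.91 against PBS at 6 weeks (8.17, 7.73 and 8.55) did not pass (adjusted p = 0.115 and 0.0744). Neither pair of groups overlapped, and no share of all genes without overlap is given here for 6 weeks. In the same comparisons at 12 weeks 38.9% and 38.3% of all genes did not overlap. Bmp6 (chromosome 13, 38345716 to 38500314) had 5.92, 5.90 and 6.02 in PBS at 0 weeks and ran from 5.89 to 7.15 over all arrays, both extremes being the pair of jak3i arrays at 24 weeks. Its difference from 0 to 12 weeks was 0.50 in jak1i (SE 0.23, adjusted p = 0.129) and -0.04 in jak3i.

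In all, 3 of the 10 members rose and 0 fell from 0 to 12 weeks in jak1i, where 9.76% of all genes rose and 6.5% fell. In jak3i 2 rose and 0 fell, beside 7.41% and 2.85% of all genes. The median difference of the members was 0.29 in jak1i and 0.01 in jak3i, beside -0.04 and -0.00 over all genes, and the members' groups did not overlap in 4 and 2 of 10, beside 40.1% and 38.9% of all genes. At 6 and 24 weeks and in PBS no member was called within an arm: the 8 contrasts over time gave 5 calls in 80 values, and 23 with an unadjusted p under 0.05. Of all 18193 genes, 4954, 5955 and 3709 had such a p in jak1i at 6, 12 and 24 weeks. In jak3i 4047, 5850 and 3122 had one, and in PBS 1786 and 2960 at 6 and 12 weeks. Of all genes 12.4% were called at 6 weeks and 1.19% at 24 weeks in jak1i, 3.15% and 0.11% in jak3i, and 0.0055% at 6 weeks and 2.28% at 12 weeks in PBS. The shares called at 12 weeks depend on the scaling of the arrays. With arrays centred on their medians, Wnt3 alone was called in jak1i, and in jak3i Wnt10b (-0.47) and Wnt11 (-1.13) were called lower in place of Wnt3 (0.67) and Axin2 (0.48), where centring moved that contrast by -0.17 for all genes and its called genes from 72.2% to 23.7% higher. With the hair shaft list mean as covariate no member was called in either arm (Wnt3 0.80 with adjusted p = 0.107 in jak1i and 0.71 with 0.646 in jak3i, Axin2 0.33 and 0.26, Bmp2 1.28 with 0.13), nor with the skeletal muscle list (Wnt3 0.87 with 0.0532 and 0.82 with 0.0611). Over all genes the calls went from 2958 to 526 in jak1i and from 1867 to 0 in jak3i with the hair shaft list. With the skeletal muscle list they went to 1220 and 651. The loss of calls was thus not particular to the members. Leaving out jak1i replicate 1 or 2 at 0 weeks or replicate 1 at 12 weeks ended all calls in jak1i. Without jak1i replicate 3 at 12 weeks Wnt3 alone was left. Of the 3 called members, Axin2 alone stayed called without jak1i replicate 2 at 12 weeks (Wnt3 adjusted p = 0.0522, Bmp2 0.0729). Wnt3 and Bmp2 stayed called without jak1i replicate 3 at 0 weeks (Axin2 0.0726). Leaving out any array compared left at most 1 call in jak3i.

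A moderated F test over the 11 groups, which asks only whether any group means differ, passed for Axin2 (F = 4.45, adjusted p = 0.0142), Wnt3 (F = 4.41, adjusted p = 0.0148) and Bmp4 (F = 3.26, adjusted p = 0.0443). These 3 of 10 stand beside 22.8% of all genes. In the order of group means, Wnt3 ran from 5.49 in jak1i at 0 weeks to 6.56 in jak1i at 24 weeks and Axin2 from 7.83 in PBS at 0 weeks to 8.73 in jak1i at 24 weeks. For Axin2 the 3 PBS groups and both inhibitor groups at 0 weeks took the 5 lowest places. The step from PBS at 6 weeks to jak3i at 6 weeks, 0.37 against a pooled SD of 0.26, was the only step between neighbours in that order, among all 10 members, that was larger than the pooled SD. Wnt11 ran in the opposite order, from 6.52 in jak1i at 12 weeks to 7.53 in jak3i at 0 weeks, with all inhibitor groups after 0 weeks in the lower places.

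Against PBS at the same week no member was called in 60 values, and 13 had an unadjusted p under 0.05. Of all 18193 genes, 917 in jak1i and 1378 in jak3i had such a p at 0 weeks. At 6 weeks 3169 and 3082 had one, and at 12 weeks 5436 and 6102. At 12 weeks the background was 6.85% of genes higher and 6.51% lower in jak1i, and 10% and 7.28% in jak3i, and both comparisons share the same 3 PBS arrays. At 0 and 6 weeks 0% and 1.36% of genes were called in jak1i and 0% and 1.94% in jak3i. Wnt3 was 0.69 higher in jak1i (SE 0.25, adjusted p = 0.0654) and 0.70 higher in jak3i (SE 0.25, adjusted p = 0.0527). Axin2 was 0.52 and 0.55 higher (adjusted p = 0.0911 and 0.0635). Wnt11 was 0.89 lower in jak1i (log2 difference -0.89, SE 0.33, adjusted p = 0.0761), and in jak3i its difference was -0.85 (adjusted p = 0.0805). Bmp2 was 1.14 higher in jak1i (SE 0.42, adjusted p = 0.0687) and 0.78 higher in jak3i (adjusted p = 0.193). The groups did not overlap for 5 members in jak1i (Wnt11, Bmp2, Bmp4, Bmp6 and Axin2) and for 4 in jak3i (Wnt11, Bmp2, Bmp6 and Axin2), where 36.2% and 38.3% of all genes did not overlap. For Wnt3 a single PBS array made the groups overlap: without PBS replicate 2 at 12 weeks, Wnt3 and Wnt11 were called in both comparisons.

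The change over time in an inhibitor arm minus the change in PBS tests directly whether the arms moved apart. At 12 weeks this difference was 0.91 for Wnt3 in jak1i (SE 0.35, adjusted p = 0.103) and 0.85 in jak3i (SE 0.35, adjusted p = 0.138), and -0.84 and -0.88 for Wnt11 (adjusted p = 0.272 and 0.251). Of 40 such values 0 were called, and 4 had an unadjusted p under 0.05. Of all 18193 genes, 2882 in jak1i and 2194 in jak3i had such a p over 6 weeks, and 4614 and 4480 over 12 weeks. Over all genes 6.85% were called in jak1i and 4.55% in jak3i at 12 weeks, and 0.121% and 0.0055% at 6 weeks. The rise of Wnt3 and Axin2 within the inhibitor arms is thus not shown to differ from the course in PBS.

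Between jak1i and jak3i at 0, 6, 12 and 24 weeks, 0 of 40 member values were called, none had an unadjusted p under 0.05, and 0% of all genes were called at any of these weeks. The intervals of the differences ran from -1.32 to 1.71. At 12 weeks the difference was -0.01 for Wnt3 (95% interval -0.52 to 0.50), -0.05 for Wnt11 (-0.74 to 0.65) and -0.03 for Axin2 (-0.46 to 0.39). The p-values do not show that the inhibitors act alike, since these intervals leave room for differences in either direction, and the doses are not known.

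**Figure D2:**
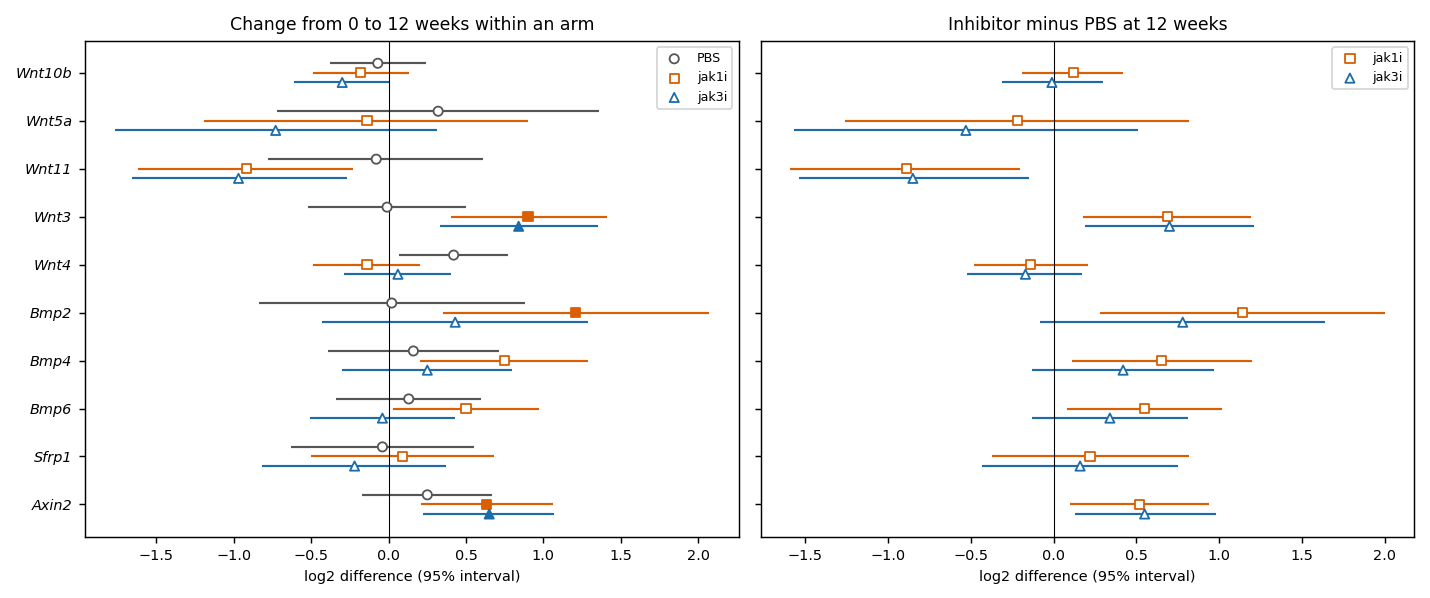
Log2 differences of the 10 members (horizontal axes) with 95% intervals from 0 to 12 weeks within each arm (left) and for each inhibitor minus PBS at 12 weeks (right). Filled symbols passed an adjusted p of 0.05: Wnt3 and Axin2 in both inhibitor arms and Bmp2 in jak1i on the left, and none on the right.

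Arrays of a group differed in their level of hair shaft RNA, and 4 members followed it. The slope of each member on the hair shaft list mean was fitted within groups, so that differences between arms and weeks play no part in it. Wnt11 had a slope of 0.200 per log2 unit of the list (SE 0.030, adjusted p = 5.2e-05), Wnt5a of 0.241 (SE 0.059, adjusted p = 0.00489) and Sfrp1 of 0.135 (SE 0.034, adjusted p = 0.00573). Axin2 had a slope of -0.086 (SE 0.026, adjusted p = 0.0195). These arrays thus had more Wnt11, Wnt5a and Sfrp1 RNA and less Axin2 RNA where they had more hair shaft RNA. Of all 18173 genes tested, 9.88% had a positive and 13.4% a negative slope that passed, beside 3 and 1 of the 10 members. Wnt10b was positive without passing (0.052, adjusted p = 0.0667), and Wnt3 (-0.028), Wnt4 (0.030), Bmp2 (0.019), Bmp4 (-0.020) and Bmp6 (-0.009) did not pass.

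The slopes rest largely on the inhibitor arms, where the list varied most, from -2.96 to 3.40 in jak3i at 6 weeks. In the 16 inhibitor arrays after 0 weeks alone the same 4 members passed, with 0.201 for Wnt11, 0.198 for Wnt5a, 0.129 for Sfrp1 and -0.096 for Axin2 (background 7.46% positive, 10.3% negative). In the 15 PBS and 0 week arrays Wnt5a alone passed, with 0.580 (SE 0.137, adjusted p = 0.0365, background 2.67% positive, 0.908% negative). There Wnt11 had 0.191 (SE 0.089, adjusted p = 0.328), Sfrp1 0.180 (SE 0.084, adjusted p = 0.324) and Axin2 -0.006 (SE 0.071). The BMP ligands had larger slopes there, 0.385 for Bmp2 (SE 0.130, adjusted p = 0.149), 0.260 for Bmp4 (SE 0.103, adjusted p = 0.231) and 0.162 for Bmp6 (SE 0.058, adjusted p = 0.173), which did not pass, beside -0.027, -0.055 and -0.030 in the inhibitor arrays after 0 weeks. Whether these slopes differ was not tested. Without jak3i replicate 1 at 6 weeks, the array with the most hair shaft RNA, 2 of the 4 slopes passed, those of Wnt11 and Axin2. The slope of Axin2 did not pass without jak1i replicate 2 at 6 weeks (-0.077, adjusted p = 0.0854), jak3i replicate 2 at 6 weeks (-0.079, adjusted p = 0.0529) or either jak1i array at 24 weeks (-0.075, adjusted p = 0.0532). The fits of 16 and of 15 arrays were chosen after seeing the data.

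**Figure D3:**
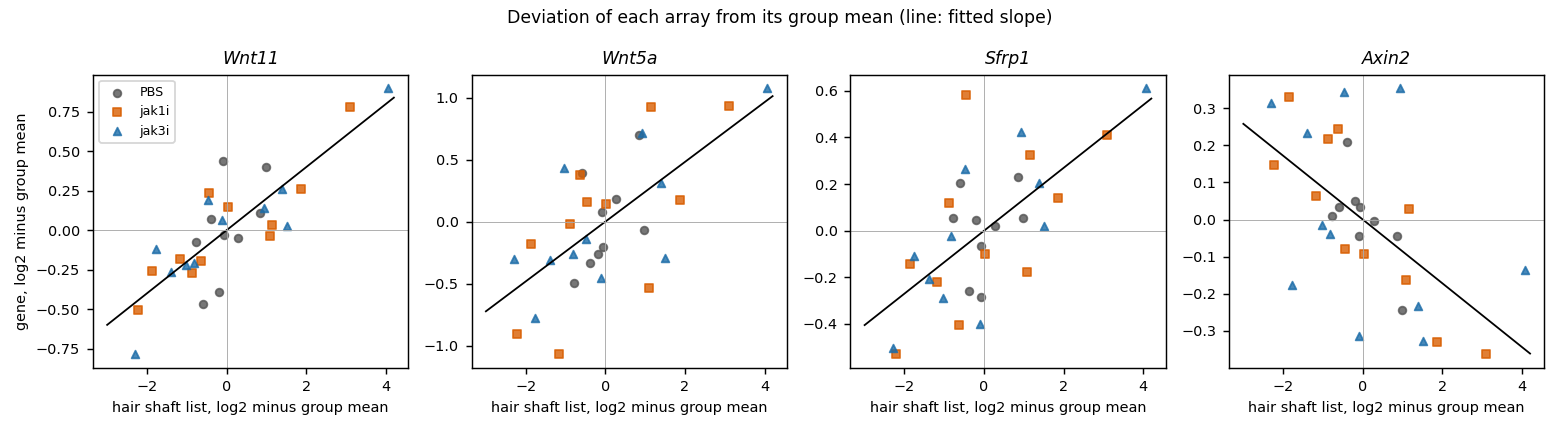
Deviation of each of the 31 arrays from its group mean, for the hair shaft list (horizontal axes, log2) and for Wnt11, Wnt5a, Sfrp1 and Axin2 (vertical axes, log2). The lines have the fitted slopes of 0.200, 0.241, 0.135 and -0.086, and the array at the far right is jak3i replicate 1 at 6 weeks.

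As a description of the same arrays, the within-group correlation with marker lists differed between members, and several members shared a list. Wnt11 deviated with the hair shaft list (r = 0.83), with the hair matrix regulators (0.85) and the cell cycle list (0.76), and against the endothelial list (-0.70). Wnt5a deviated with the hair matrix regulators (0.78) and the cell cycle list (0.72), and Sfrp1 with the same lists (0.77 and 0.75). Bmp4 deviated with the dermal papilla list (0.67), and so did Sfrp1 (0.63), Bmp2 (0.58), Bmp6, Wnt5a and Wnt10b (each 0.56). The values of Wnt3 (0.17), Wnt11 (0.12), Axin2 (0.11) and Wnt4 (-0.14) with that list were lower. Some genes of the dermal papilla list were dim, such as Hey2 (3.91 to 5.06), and others were not, such as Vcan (7.07 to 9.68). Bmp2 (-0.57), Wnt10b (-0.55), Bmp4 (-0.53), Wnt5a (-0.52), Bmp6 (-0.51) and Sfrp1 (-0.45) also deviated against the interfollicular keratinocyte list. Bmp2, Bmp4 and Axin2 deviated against the T and NK cell list (-0.61, -0.56 and -0.61).

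The 3 BMP ligands varied together from array to array. Over the 31 arrays the correlation of Bmp2 with Bmp4 was r = 0.82 (Spearman's rho 0.81), of Bmp2 with Bmp6 0.80 (rho 0.81) and of Bmp4 with Bmp6 0.79 (rho 0.85). Each had a permutation p of 1e-05, the smallest that 100000 permutations can give, and an adjusted p of 9e-05 over the 45 pairs of members (0.00013 for rho). Without the 2 arrays farthest from the median of the first gene, r was 0.79, 0.80 and 0.80, and within groups it was 0.68, 0.70 and 0.64. Wnt3 and Axin2 were also positively correlated (r = 0.77, rho 0.75, permutation p = 1e-05, adjusted p = 9e-05, 0.74 without 2 arrays, 0.52 within groups). Wnt11 and Axin2 were negatively correlated (r = -0.76, rho -0.72, permutation p = 1e-05, adjusted p = 9e-05, -0.73 without 2 arrays, -0.53 within groups). In all, 17 of the 45 pairs passed an adjusted p of 0.05 for r. The share of pairs passing among all genes was not computed, so this count cannot show whether the members are correlated more than other genes. All arrays share the tissue and the time course, so that the pooled correlations include the differences between groups. The permutations moved the 31 arrays freely across the 11 groups, so their p-values include those differences too. No p was computed for the correlations within groups.

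The 3 genes most like each member were those of highest r over the 31 arrays among all named genes, and carry no p since they were picked as the highest of 18193. For Bmp2 they were Egfl6 (r = 0.89, 0.81 within groups), Thsd1 (0.89 and 0.80) and Tfap2b (0.87 and 0.80). Egfl6 (0.86) and Tfap2b (0.84) were also those most like Bmp6, followed by Bmp2 itself, while Bmp4 was most like Ism1, Rapgef2 and Hecw2 (0.89 to 0.90). For Wnt11 they were Rnf149, Rars and Specc1 (0.92 to 0.93), for Axin2 Selenoo, Pfkfb2 and Lrsam1 (each 0.92), and for Wnt3 Gdnf (0.88), Skint10 and Efs (0.85). Sfrp1 was most like Prss35 (0.84), the Wnt5a receptor gene Ror2 (0.79) and the Hedgehog target Gli1 (0.78), with 0.83 to 0.89 within groups. Wnt5a was most like Gmcl1, Cybrd1 and Cacna2d3 (0.90 to 0.92), Wnt10b like Kif7, Mc1r and Gdap1 (0.74 to 0.78), and Wnt4, with the weakest likeness, like Evpl, Stard10 and Rps26 (0.64 to 0.66).

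The members were set beside 111 other measured genes of the Wnt and BMP pathways, from 9 lists. From 0 to 12 weeks 17 of these rose and 4 fell in jak1i, 4 rose and 4 fell in jak3i, and in PBS Id1 alone rose (0.75, adjusted p = 0.0465). The shares of all genes were 9.76% higher and 6.5% lower in jak1i, and 7.41% and 2.85% in jak3i. With centred arrays the counts were 12 and 4 in jak1i and 5 and 9 in jak3i, no call turned its sign, and Id1 in PBS was not called. With the hair shaft list mean as covariate 4 were called in jak1i, Apc, Rgmb, Smad4 and Grem1, and 0 in jak3i, beside 526 and 0 of all genes. With the skeletal muscle list 7 were called higher and 1 lower in jak1i, and 2 higher in jak3i, Fzd4 and Rgmb. Beside them 1220 and 651 of all genes were called. These settings were chosen for the pathway genes after seeing the data.

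Of the 6 genes of Wnt secretion and agonists, 2 rose and 1 fell in jak1i, and 0 rose and 1 fell in jak3i. The R-spondins Rspo3 (1.74, SE 0.49, adjusted p = 0.0193) and Rspo1 (1.47, SE 0.43, adjusted p = 0.0239), secreted proteins that strengthen Wnt signalling, rose in jak1i, as did Lgr6 (2.07, SE 0.44, adjusted p = 0.00513), an R-spondin receptor. Porcn, whose enzyme attaches the lipid that Wnt ligands need for secretion, fell by 1.55 (log2 difference -1.55, SE 0.32, adjusted p = 0.00461). The other members of that list in jak1i were Wls (0.05), Rspo2 (0.05) and Rspo4 (-0.04). In jak3i these genes had differences of 0.66, 1.04, 1.36 and -0.64 and did not pass, while the receptor genes Fzd4 (1.25, adjusted p = 0.0436) and Fzd5 (-1.56, adjusted p = 0.0499) did. Of the 18 receptor genes, 2 rose and 0 fell in jak1i, Lgr6 and Fzd3 (0.68, SE 0.22), and 1 rose and 1 fell in jak3i. The R-spondin gene Rspo2 fell by 0.27 in jak3i (SE 0.09). Among 14 further Wnt ligands, Wnt16 rose in jak1i (0.91, adjusted p = 0.026) and Wnt8a (-0.55) and Wnt9b (-0.37) fell, and none passed in jak3i.

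Of the 17 Wnt antagonists, 2 rose in jak1i, Dkk2 (1.78, SE 0.41, adjusted p = 0.00716), whose protein blocks the LRP co-receptors, and Apcdd1 (0.67, adjusted p = 0.0329), and none passed in jak3i. Of the 15 transducers Apc (0.30) and Dvl1 (0.44) rose in jak1i and Csnk1a1 (-0.27) fell in jak3i. Lef1, the TCF/LEF factor of the hair matrix, had differences of -0.34 in jak1i and -1.39 in jak3i that did not pass (adjusted p = 0.759 and 0.167).

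On the BMP side, 3 of the 14 antagonist genes rose in jak1i, where 9.76% of all genes rose, and 0 fell. They were Grem1, which rose by 2.32 (SE 0.52, adjusted p = 0.0061), Chrdl1 by 2.21 (SE 0.60, adjusted p = 0.0167) and Nbl1 by 0.78 (adjusted p = 0.0372), while the other 11, among them Nog (-0.17), Chrd (-0.14) and Fst (0.90), did not pass. In jak3i Nbl1 rose (0.89, adjusted p = 0.0341), and Grem1 (1.56, adjusted p = 0.0544) and Chrdl1 (1.64, adjusted p = 0.0725) missed the threshold. Rgmb, a BMP co-receptor, rose in both arms (1.26 with adjusted p = 0.00281 in jak1i, 1.05 with 0.0208 in jak3i) and was the pathway gene called in the most contrasts, 8 of 22. Smad4 (0.37) and Smad5 (0.38) rose in jak1i, where Smad1, which transmits the BMP signal, fell by 0.40 (SE 0.12), and Bmpr1b (0.84) rose in jak3i. Of the 6 other BMP ligands none passed over time in either arm.

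The BMP target genes did not move one way. Id1 (0.64) and Gata3 (0.61) rose in jak1i and Id2 fell by 0.52 in jak3i, while Msx2 (-1.35 and -2.27) and Dlx3 (-1.15 and -1.71) did not pass in either arm. In PBS Id1 rose as well (0.75), while Id2 (-0.37) and Gata3 (0.05) did not pass. Msx2, Dlx3 and Lef1 also belong to the hair matrix list, Gata3 to the inner root sheath list and Rspo3 to the dermal papilla list. Msx2 (0.616), Dlx3 (0.453), Lef1 (0.402) and the BMP decoy receptor gene Bambi (0.584) rose with the hair shaft list within groups. So did Fzd5 (0.324), Smad6 (0.307), Bmp8a (0.292), Msx1 (0.268) and Smad7 (0.151). Grem1 (-0.333) and Dkk2 (-0.236) ran against it. Each of these slopes had an adjusted p of 1.5e-04 or less by limma. They were the smallest among the pathway genes, and further slopes of either sign passed 0.05. Of the 14 BMP antagonist genes 3 had a positive and 5 a negative slope that passed. In the other pathway lists 0 to 3 were positive and 0 to 2 negative. Of all genes tested, 9.88% had a positive and 13.4% a negative slope that passed 0.05. Among genes called over time, Rgmb (-0.124, adjusted p = 8.4e-04), Nbl1 (-0.142, 2.0e-04), Lgr6 (-0.185, 0.019) and Rspo1 (-0.188, 0.0128) also had negative slopes that passed. Porcn had a positive one (0.148, 0.00785), while Rspo3 (-0.021) and Chrdl1 (-0.129) did not pass.

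**Figure D4:**
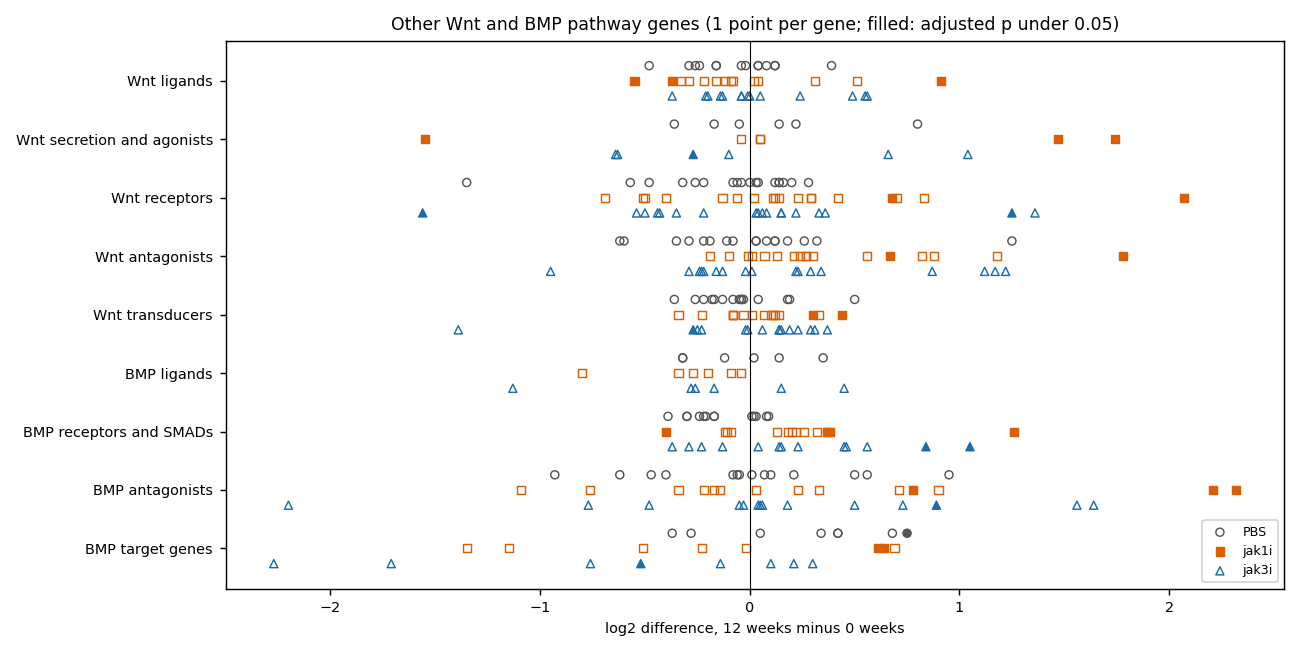
Log2 differences from 0 to 12 weeks (horizontal axis) of the other Wnt and BMP pathway genes by list (rows), with 1 point per gene and arm. Filled points passed an adjusted p of 0.05, 21 in jak1i, 8 in jak3i and 1 in PBS.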

How the data were processed

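The values are the deposited log2 values of the authors from 31 Affymetrix arrays, made with RMA per the submitters' processing notes, with no version given. RMA equalises the distributions of arrays, so a shift of most genes in one direction is hidden. Of 45101 probe sets, 34945 named a single gene and were no controls, and the probe set of highest mean stood for each of 18193 genes. limma 3.58.1 in R 4.3.3 fitted 11 group means (20 residual and 2.50 prior degrees of freedom), with Benjamini-Hochberg adjustment within each of 22 contrasts. Replicates of a group differed by an SD of 0.242 to 0.606 over genes in 29 pairs, so none was a duplicate. The small number of arrays limits the precision. A p-value of limma compares a difference with the spread between arrays of the same group, pooled over the 11 groups.

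Members are all named. For each pathway list, up to 3 called genes of smallest adjusted p, the 2 of largest difference at 12 weeks, and for each member the 3 most alike genes were eligible to be named. Wls, Rspo2, Rspo4, Fzd3, Nog, Chrd, Fst, Smad1, Smad6, Smad7, Msx1, Crim1, Bambi and called genes named under the covariate lie outside that rule and were chosen after their values were seen. Members and lists were chosen with earlier results of these data known. Scripts were tested on simulated data. Other settings were centred arrays, no dim genes, the mean of probe sets, other variance, fewer arrays, covariates, the replicate number and other control arrays. No scan date was used here, and scan batches were not tested.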

Additional observations from a re-analysis of the deposited data

Results flagged for a closer look

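The change over 12 weeks in each inhibitor arm was tested against that in PBS by limma. It differed for 7 of the 111 other pathway genes in jak1i, for 2 of them in jak3i, and for no member. In jak1i the change exceeded that in PBS by 0.90 for Fzd2 (adjusted p = 0.0489), a Wnt receptor gene, by 2.13 for Dkk2 (adjusted p = 0.032), by 0.69 for Tcf7l1 (adjusted p = 0.0174), a TCF factor of follicle stem cells, by 1.42 for Rgmb (adjusted p = 0.0168) by 2.83 for Chrdl1 (adjusted p = 0.0464) and by 1.27 for Crim1 (adjusted p = 0.0471), whose own differences were 0.33 in jak1i and -0.93 in PBS. For Porcn it was lower, with a difference of -1.69 (adjusted p = 0.0303). In jak3i the difference was 1.23 for Bmpr1b (adjusted p = 0.0421), a BMP receptor gene, and 1.22 for Rgmb (adjusted p = 0.0418). Over all genes 6.85% were called in this comparison for jak1i and 4.55% for jak3i, and the pathway counts of 7 and 2 of 111 do not exceed these shares. The PBS arrays at 12 weeks enter every one of these values, and they stood apart in the skeletal muscle list (-6.10 to -2.86). With that list as covariate 0 of the 111 genes, and 0 of all genes, were called by limma in either arm, while 10 of the 111 in jak1i and 7 in jak3i had an unadjusted p under 0.05. Of the 7 differences called in jak1i, 1 turned its sign. The list separates that PBS group from all other arrays, so covariate and group can hardly be told apart here. The loss of calls therefore does not show whether these changes go with the list. With the hair shaft list as covariate 0 of the 111 were called in either arm (19 and 11 with an unadjusted p under 0.05), beside 28 of all genes in jak1i and 0 in jak3i.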

How the results depend on the processing

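The counts of members called were as follows under other settings. From 0 to 12 weeks in jak1i (3 as reported) the count was 1 with centred arrays, 2 with the mean of probe sets or the replicate number as a block (Wnt3 and Axin2, with Bmp2 at adjusted p = 0.0521 and 0.0601), 5 without dim genes (Wnt11 lower, Wnt3, Bmp2, Bmp4 and Axin2 higher), and 0 with the hair shaft or the skeletal muscle covariate. In jak3i (2 as reported) it was 1 with the mean of probe sets (Wnt3), and 0 with either covariate. With the hair shaft covariate 526 of all genes were called in jak1i and 0 in jak3i. With the skeletal muscle covariate 1220 and 651 were called. Replicate numbers did not pair the arrays: deviations of same-numbered arrays correlated at -0.61 to 0.56, and all pairs exceeded the limit in 2 of 18 contrasts. With only the compared arrays the counts stayed at 3 and 2, but the genes were Wnt3, Axin2 and Wnt11 (lower) in jak1i, without Bmp2, and Wnt3 and Wnt11 (lower) in jak3i, without Axin2. With the replicate number as a block the jak3i count was 1 (Wnt3), the jak1i count 2, and no other count moved. Contrasts with 0 members as reported gained 1 in jak1i from 0 to 24 weeks (Wnt3) and in jak3i against PBS at 12 weeks (Wnt3) without dim genes. They gained 1 in jak3i against PBS at 6 weeks (Bmp4) and at 12 weeks (Wnt11, lower) with centred arrays, 1 in each inhibitor arm against PBS at 12 weeks with the mean of probe sets (Axin2), and 1 in jak1i against PBS at 12 weeks with only the compared arrays (Bmp2). The count of hair shaft slopes was 4 as reported, 5 with centred arrays (Wnt10b added) and 1 in the PBS and 0 week arrays. The dimmer Axin2 probe set turned the sign of the jak3i difference (-0.10) and of the slope (0.004).

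Leaving out each array in turn gave 0 to 3 members in jak1i and 0 to 1 in jak3i from 0 to 12 weeks, 0 to 3 and 0 to 1 from 0 to 6 weeks, 0 to 2 in jak1i from 0 to 24 weeks, 0 to 2 against PBS at 12 weeks in each arm, 0 to 1 for the change against PBS over 12 weeks in each arm, and 2 to 5 slopes. The 3 calls from 0 to 6 weeks appeared without jak1i replicate 2 at 6 weeks, and the 1 in jak3i (Wnt11) without jak3i replicate 1. The Wnt3 change against PBS was called in both arms without PBS replicate 2 at 12 weeks. Where an omission left 1 array at 24 weeks, that array was assumed to vary like the other groups. The cause of these moves was not tested. With 2 or 3 arrays a group, the SE of a member's difference between 2 groups was between 0.15 and 0.62, and signal near the median of all values limits Wnt3, Wnt10b and Bmp6.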
